A study of Mus musculus and Mus spretus with 18 samples.

Results

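The change of gene expression in the maturing brain of Mus spretus between day 14 and day 56 after birth was measured as the 3 arrays of day 56 animals minus the 3 arrays of day 14 animals. These are 6 of the 18 arrays of a study of 2 mouse species, and each gave a value for the same 12346 Ensembl genes, all of which were used. The arrays were chosen by the species and age in their titles. The values do not enter that choice.

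The interval runs from the pup to the young adult. In the mouse brain it is known as a time when most neurons are in place and their circuits are refined: axons go on being wrapped in myelin by oligodendrocytes, surplus synapses are removed, inhibitory transmission matures, and the programmes of axon growth and cell division that serve the newborn brain are shut down. These are background statements. The deposited files give genes as Ensembl IDs, and 0 of these IDs could be paired with a gene symbol through the reference table used here. The late processes are therefore described by groups of genes that share a direction, a size, a level or a time course, and 2 IDs in each direction stand as examples without a name or a role. The lists of myelin, synapse, glial, vascular and blood genes could not be read out for the same reason, so the label whole brain was not checked against markers, and neither was the share of any cell type.

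The day 56 group held 3 young adult males and the day 14 group 3 male pups of the wild-derived inbred strain SPRET/EiJ (Mus spretus). The comparison step in the other species used 3 males at each age of WSB/EiJ (Mus musculus), and 3 newborn males of each strain (day 0) served to place the levels. Animals of both strains were bred in 1 facility from purchased mice, and each species is represented by a single inbred strain. The tissue was the whole brain without the olfactory bulb, and 1 array was hybridised per individual. In such bulk tissue, fewer cells of a type and less RNA per cell cannot be told apart.

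The 6 spretus arrays were alike in level and spread. Their medians lay between 6.52 and 6.54 on the log2 scale. The correlation with the other arrays of the same age across genes averaged 0.994 to 0.995, and with the arrays of the other age 0.990 to 0.991. No array stood apart: the root mean square distance from the mean of the other 2 arrays of its group was 0.179 to 0.206 at day 56 and 0.189 to 0.206 at day 14. The median SD between animals over all genes was 0.11 at both ages (n = 3 each).

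Between day 14 and day 56, 491 genes rose and 513 fell in spretus brain (limma, Benjamini-Hochberg adjusted p under 0.05), which is 3.98% and 4.16% of the genes tested, and 8.13% together. The genes that fell and those that rose were thus nearly equal in number. They were also alike in size. The log2 change of the risen genes had a median of 0.44 and quartiles of 0.35 and 0.56, and that of the fallen genes a median of -0.44 and quartiles of -0.36 and -0.56. Most changes were modest, since 380 of the risen genes and 396 of the fallen genes changed by less than 1.5-fold, 77.4% and 77.2% of them. At least 2-fold changes were called in 18 risen and 17 fallen genes. The median log2 change over all genes was -0.01.

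**Figure D1:**
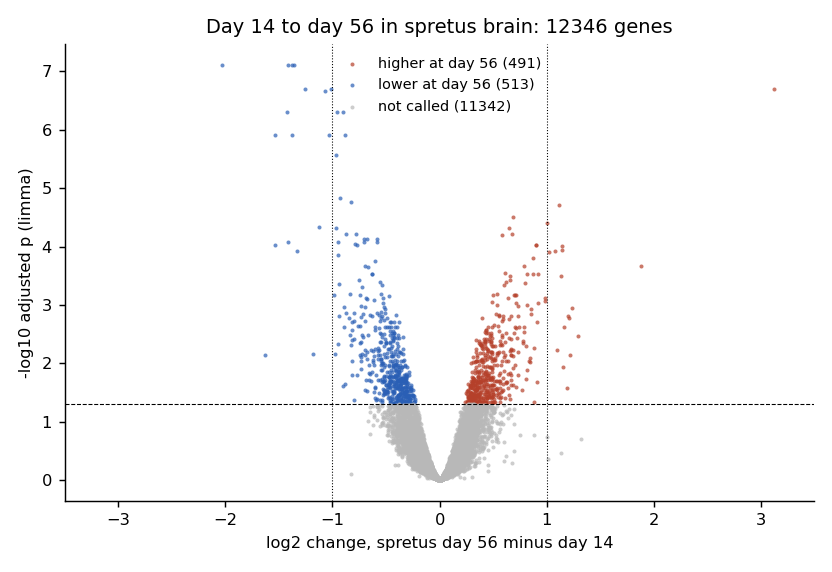
Log2 change from day 14 to day 56 in spretus (x axis) against -log10 of the limma adjusted p (y axis), 1 point per gene, with the 491 risen genes, the 513 fallen genes and the genes not called in separate colours. The dashed line marks an adjusted p of 0.05 and the dotted lines a 2-fold change; 1 gene lies far to the right of all others, at a log2 change of 3.12.

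Calls and the overlap of the single animals rest on the same 6 spretus arrays, so neither tests the other. Of the 1004 called genes, 984 had no overlap between the 3 day 56 and the 3 day 14 values, 483 of the risen and 501 of the fallen. Lack of overlap alone was far more frequent than a call: over all genes 14.1% lay higher and 14.5% lower at day 56 without overlap, and 2539 genes of this kind were not called. In the plot of change against adjusted p the smallest called changes were 0.24 upward and -0.23 downward. Fewer genes were called with any 1 of the 6 arrays left out, 535 to 764. Of the day 56 animals, leaving out replicate 2 gave 548 calls and leaving out replicate 3 gave 610. Of the day 14 animals, leaving out replicate 2 gave 535 and leaving out replicate 3 gave 627. Called with the same sign in all 6 fits that leave out 1 array were 368 genes, 175 risen and 193 fallen, among them 16 of the 18 and 17 of the 17 genes with at least 2-fold changes. With the 6 arrays of the comparison fitted alone, 645 genes were called, and 555 of these were among the 1004.

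The largest rise was that of ENSMUSG00000024810. Its log2 levels in spretus were 9.13, 8.94 and 8.97 at day 56, against 5.35, 6.08 and 6.23 at day 14. The adult animals lay close together, all well above the pups. The log2 change was 3.12 ± 0.23 (SE), an 8.71-fold rise (limma, adjusted p = 2.03e-07, 95% interval of the log2 change 2.64 to 3.60). At day 0 the gene stood at 4.49 ± 0.23 (SD, n = 3), below 4.755, the upper limit of the dimmest of 4 equal classes of genes by mean level, and most of the distance between its day 0 and day 56 means was covered after day 14. In musculus the same gene measured 7.61, 7.57 and 7.85 at day 56, against 5.79, 6.32 and 5.86 at day 14, a log2 change of 1.69 ± 0.23 (adjusted p = 0.000142). The pups of the 2 species overlapped, and the adult spretus animals lay above the adult musculus animals. The spretus change exceeded the musculus change by 1.44 ± 0.32, with a 95% interval of 0.76 to 2.11, and this difference did not pass the test over all genes (adjusted p = 0.135).

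ENSMUSG00000040666 had the second largest rise among genes without overlap. Its spretus log2 levels were 8.03, 7.87 and 7.78 at day 56, against 6.19, 5.97 and 5.92 at day 14. The animals of each age lay close together and the ages far apart. The log2 change was 1.88 ± 0.25 (SE), or 3.67-fold (limma, adjusted p = 0.000216). This gene too began low, at 5.13 ± 0.15 on day 0 (SD, n = 3). In musculus it stood at 6.88, 6.32 and 7.12 at day 56, against 5.80, 5.91 and 4.64 at day 14. The rise there was 1.32 ± 0.25 (adjusted p = 0.00232), and the difference between the species of 0.55 ± 0.35 was not past the threshold (adjusted p = 0.582).

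The deepest fall was seen in ENSMUSG00000052229, which peaked in the pup. In spretus it read 8.24, 8.30 and 8.37 at day 56, against 10.34, 10.33 and 10.35 at day 14. The 3 pups were almost identical, and each adult lay far below them. At day 0 the animals had 8.58, 8.88 and 8.69, so the adult level came to lie slightly under the newborn level. The fall was 4.10-fold (log2 change -2.04 ± 0.13, SE; limma, adjusted p = 7.66e-08). The musculus change was -2.21 ± 0.13, and the difference of 0.17 had a 95% interval of -0.23 to 0.57 (adjusted p = 0.774).

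A second gene with a pup peak, ENSMUSG00000025270, varied more between animals. Its spretus log2 levels were 7.38, 7.54 and 7.46 at day 56, against 8.98, 8.28 and 10.02 at day 14. The adults were tight and the pups were scattered, with the SD at 0.08 in adults and 0.88 in pups (n = 3 each), but no values of the 2 ages overlapped. The log2 change was -1.63 ± 0.34 (SE; limma, adjusted p = 0.00707). Without spretus day 14 replicate 3, the highest pup, it was -1.17, and without spretus day 14 replicate 2 it was -2.04. Spretus newborns had 6.46, 6.64 and 7.35, below every spretus adult. Musculus newborns had 7.77, 7.38 and 8.08, above every musculus adult at 6.43, 6.19 and 6.88. The musculus change was -2.13 ± 0.34 (adjusted p = 0.000671), and the difference of 0.50 ± 0.48 was not called (adjusted p = 0.733).

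**Figure D2:**
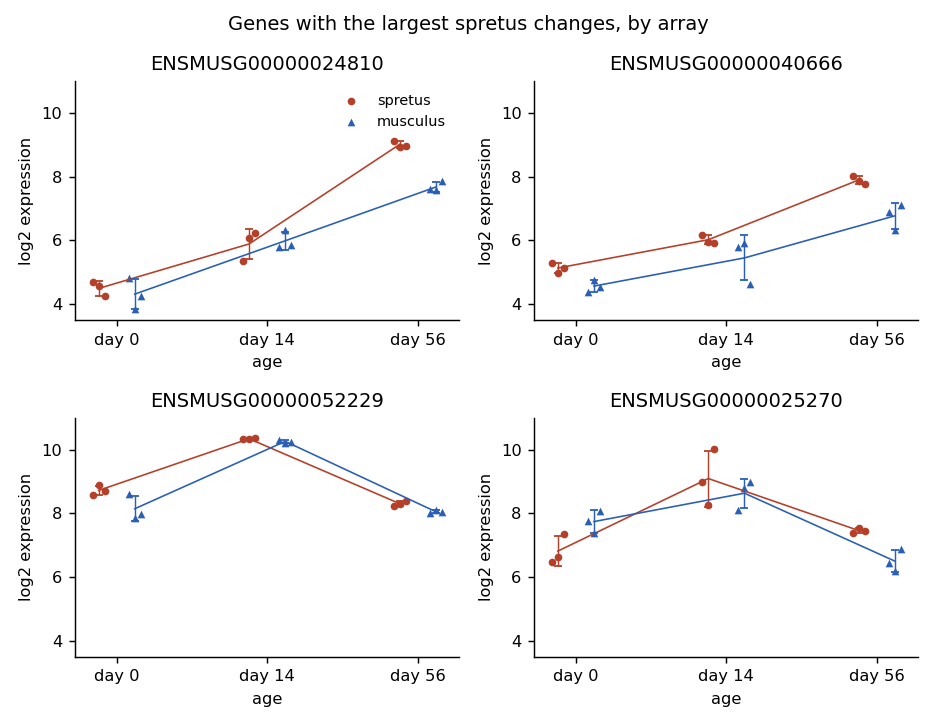
Log2 expression (y axis) of the 2 genes with the largest rise and the 2 with the largest fall in spretus, at day 0, day 14 and day 56 (x axis, ages evenly spaced), with 1 point per animal, bars for the mean ± SD (n = 3) and lines through the means. The upper genes climb at each age, to 9.01 and 7.90 in adult spretus, and the lower genes peak at day 14, at 10.34 and 9.09.

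The genes with the largest changes in the 2 directions had different levels in the pup. The 18 genes that rose at least 2-fold had spretus log2 levels of 4.89 to 10.4 at day 56 (median 7.79) and of 3.73 to 9.21 at day 14 (median 6.14). The 17 genes that fell at least 2-fold had 5.81 to 10.8 at day 56 (median 7.70) and 7.22 to 11.9 at day 14 (median 9.09). In spretus both sets thus reached similar adult levels, the first from low and the second from high levels in the pup. The same spretus levels entered the choice of these genes. In musculus the medians of the 2 sets were 6.22 and 9.18 at day 14, and 7.27 and 8.03 at day 56. In 2 of the 18 risen genes the spretus pup level lay below the limit of 4.755 given for the dimmest genes, so their sizes may not be exact. The SE of the change in these sets was 0.11 to 0.31 among the risen and 0.07 to 0.34 among the fallen genes.

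Calls were more frequent among strongly expressed genes. When the genes were put into 4 classes of equal size by their mean log2 level over all 18 arrays, 0.680% of the dimmest class rose and 0.777% fell. In the second class these shares were 2.62% and 2.46%, in the third 5.87% and 5.67%, and in the brightest class 6.74% and 7.71%. Calls in both directions became more frequent with the level, and neither direction led throughout. The median absolute log2 change was 0.10 in the dimmest class and 0.14, 0.15 and 0.14 in the others, and the median SE of the change was 0.13, 0.13, 0.11 and 0.09 from the dimmest to the brightest class. The part of either in the calls was not tested.

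**Figure D3:**
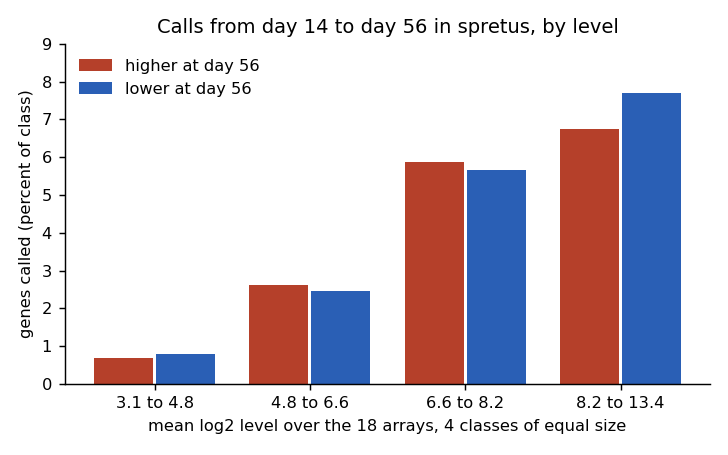
Percent of genes called higher or lower at day 56 than at day 14 in spretus (y axis), for 4 classes of genes of equal size by mean log2 level over the 18 arrays (x axis). The bars climb from under 1% in the dimmest class to 6.74% higher and 7.71% lower in the brightest.

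The authors masked probes in 9125 of the genes, and calls were more frequent in genes with more masked probes. Of the 3221 genes with no masked probe 4.38% were called, of those with 1 to 2 masked probes 7.46%, with 3 to 6 11.2% and with 7 or more 12.5%. The level moved with masking in the same order, with median log2 levels of 4.75, 6.24, 7.60 and 8.06, and its part was not tested. Within the called genes, 44.0%, 47.9%, 50.8% and 51.3% of the 4 classes had risen.

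The genes called in spretus were then read in musculus brain, whose arrays do not enter the spretus change itself. Both species' calls do share the variance of each gene, which was estimated from all 18 arrays. Of the 491 genes that rose in spretus, 454 were also higher at day 56 in musculus (92.5%), with a median log2 change of 0.44 in spretus and 0.27 in musculus. Of the 513 genes that fell, 471 were lower in musculus (91.8%), with medians of -0.44 in spretus and -0.36 in musculus. Over all genes, 63.2% had the same sign in both species. The 18 risen and 17 fallen genes past 2-fold all had the same sign in musculus, where their median log2 changes were 0.81 and -1.29. In musculus 13 of the 18 and 16 of the 17 were called in the same direction, where 5.08% of all genes were called higher and 6.82% lower. The agreement of signs was not limited to large changes: of the 380 risen and 396 fallen genes under 1.5-fold, 91.1% and 90.7% had the same sign in musculus. Since these genes were chosen for their spretus change, the smaller musculus medians are no measure of a species difference.

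The choice was therefore also turned round. In musculus 150 genes were called with a rise of at least 1.5-fold and 205 with a fall of at least 1.5-fold. The 150 genes had a mean log2 level in spretus of 7.69, 7.65 and 7.63 in the 3 day 56 animals, against 7.19, 7.16 and 7.10 in the 3 day 14 animals. The 205 genes averaged 7.22, 7.21 and 7.24 at day 56, against 7.74, 7.73 and 7.79 at day 14. Each adult thus stood on the adult side of each pup in both sets, by 0.51 upward and -0.53 downward in the mean. In musculus, from whose values these genes were chosen, the means differed by 0.82 and -0.82. Of the 150 genes 142 were higher in adult spretus and 73 rose by the test, and of the 205 genes 195 were lower and 116 fell. Over all genes 63.2% had the same sign in both species, and 3.98% rose and 4.16% fell in spretus.

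**Figure D4:**
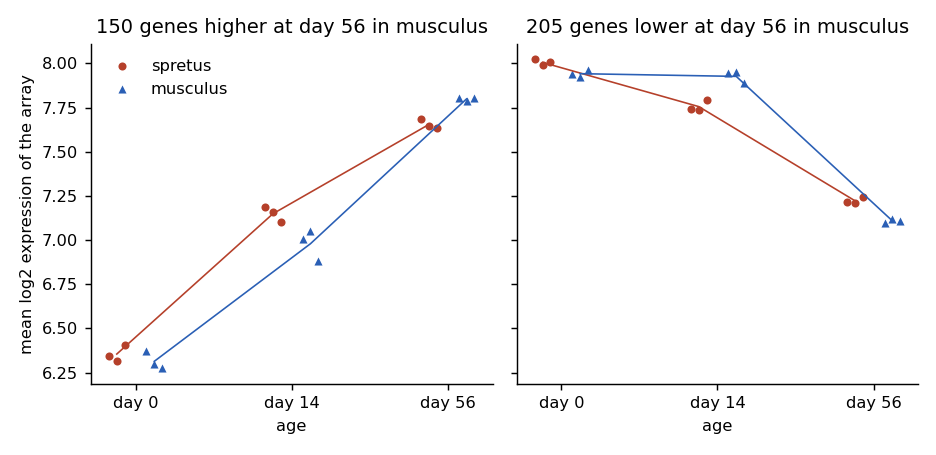
Mean log2 expression per animal (y axis) of the 150 genes that rose and the 205 genes that fell at least 1.5-fold in musculus, at 3 ages (x axis, evenly spaced), with spretus and musculus in separate colours and lines through the group means. In spretus the day 56 animals lie above all day 14 animals for the first set and below them for the second.

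The newborn levels showed how the late change continued or turned the early one. The day 0 arrays are not part of the step, but the day 14 arrays enter both steps, so the spretus values are given as a description and the musculus values of the same genes beside them. Of the 491 risen genes, 301 had a mean level at day 0 below that at day 14 in spretus, so that they climbed throughout (61.3%). In musculus 63.5% of the same genes had their day 0 level below both later ages. A further 23.6% had a day 0 level between the later ages in spretus, with a trough at day 14 that was more than made up by day 56, and in musculus 13.4% had such a place. The remaining 15.1% in spretus and 23.01% in musculus were highest in the newborn. Among genes with a positive change that were not called, 49.2% had the day 0 level below day 14 in spretus and 34.2% had it above day 56.

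Part of the fallen genes turned at day 14. In spretus 278 of the 513 had their highest level at day 0 and declined throughout (54.2%), and 52.4% of the same genes were also highest at day 0 in musculus. In 235 of them, or 45.8%, the day 14 level was the highest of the 3 ages in spretus, and in musculus this held for 42.3%. Among genes with a negative change that were not called, 42.6% had their highest level at day 0 in spretus. A peak at day 14 was thus more frequent in those genes than in the fallen genes. The day 14 values set both the peak and the sign by which those genes were taken. These shares are therefore no measure of a difference in time course. In spretus the 235 fallen genes with a pup peak had a median log2 difference of 0.45 between day 14 and day 0 and of -0.45 between day 56 and day 14. In 124 of the 235 the adult level came to lie below the newborn level. In musculus the 217 genes with a pup peak had medians of 0.46 and -0.36, and in 89 of them the adult level lay below the newborn level. The corresponding risen genes, with a trough at day 14, numbered 190 in spretus (38.7%) and, of the same 491 genes, 155 in musculus (31.6%). In spretus they had a median log2 difference of -0.31 between day 14 and day 0 and of 0.41 between day 56 and day 14, and in musculus of -0.36 and 0.23. Among genes with a positive change that were not called, 49.2% had their lowest level at day 0 in spretus. A trough at day 14 was thus more frequent in those genes than in the risen genes. Here too the day 14 values set both the trough and the sign, so the shares do not compare time courses.

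**Figure D5:**
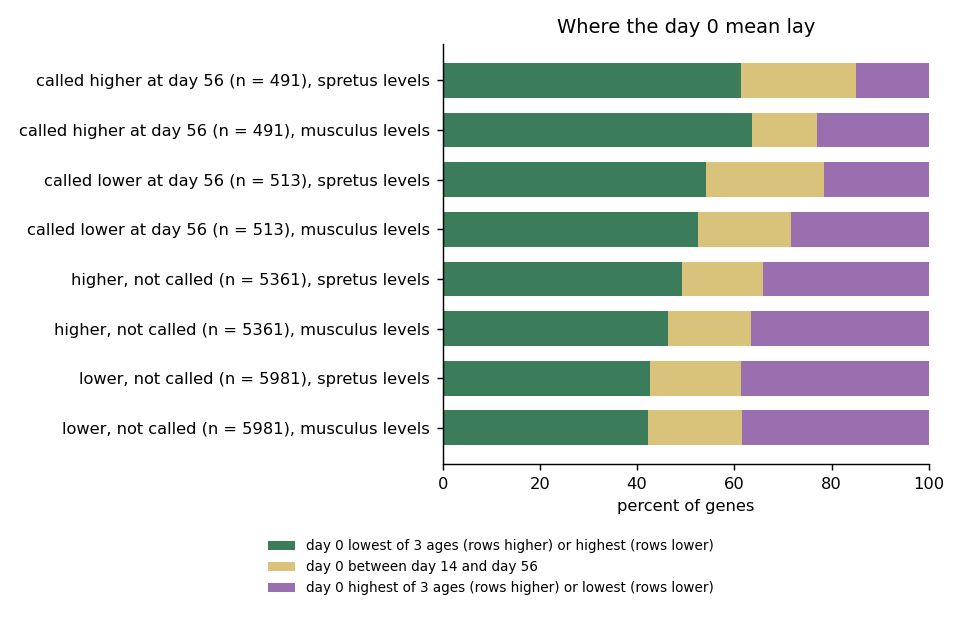
Percent of genes (x axis) by the place of the mean day 0 level, for genes called higher or lower at day 56 than at day 14 in spretus and for genes not called (rows), read from spretus and from musculus levels. The first segment, genes whose day 0 level was the lowest of the 3 ages in rows called or measured higher and the highest in rows called or measured lower, takes 61.3% of the called higher and 54.2% of the called lower genes in spretus.

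In spretus the called genes that moved in 1 direction covered about as much distance after day 14 as before it. In musculus the share after day 14 was lower. For the 301 genes that climbed throughout in spretus, a median of 51.6% of the log2 distance between day 0 and day 56 was covered after day 14 (quartiles 35.5% and 67.0%). For the 278 that declined throughout the median was 49.4% (quartiles 35.8% and 66.1%). These genes were chosen for a spretus change after day 14, which favours a high share in spretus. In musculus, 299 of the risen and 254 of the fallen genes had the 3 ages in the same order, with medians of 39.3% and 46.4% after day 14. Since the choice was made on the spretus change, the lower musculus shares are no measure of a species difference. The genes with the largest rises belonged mostly to the climbing kind: 15 of the 18 with at least 2-fold rises had a lower level at day 0 than at day 14, 3 had a day 0 level between the later ages, and 0 lay above the adult level at day 0. Of the 17 genes with at least 2-fold falls, 9 declined throughout, 3 had a day 0 level between the later ages and 5 had a day 0 level below the adult level.

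The spretus change differed from the musculus change in 5 genes (limma, adjusted p under 0.05), or 0.0405% of those tested, and in all 5 the spretus change was the more positive. At an unadjusted p under 0.05, 1328 of the 12346 genes passed, a count that includes genes passing by chance without a difference. The median SE of the difference was 0.16, against 0.11 for the spretus change, so differences were measured less precisely. The count of 5 was unsteady: with 1 of the 12 arrays of days 14 and 56 left out it was 3 to 11, and over all alternatives 0 to 12. It was 3 without replicate 1 of the spretus adults, 11 without replicate 1 of the musculus adults, and 8 without replicate 1 or without replicate 3 of the musculus pups. The 0 came from genes with no masked probe tested alone. All 5 genes have masked probes and could not be called there. The lowest count in the other alternatives was 1, with the 12 arrays of days 14 and 56 fitted alone. In ENSMUSG00000030560 the spretus log2 levels were 6.999, 7.22 and 6.91 at day 56, against 7.01, 6.63 and 6.96 at day 14, while the musculus levels were 7.65, 7.10 and 7.30 at day 56, against 8.66, 8.72 and 8.46 at day 14. The spretus ages overlapped, and the musculus adults all lay below the musculus pups. The spretus change was 0.18 ± 0.14 (SE; adjusted p = 0.485) and the musculus change was -1.26 ± 0.14, with a difference of 1.44 ± 0.19 (limma, adjusted p = 0.00525).

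ENSMUSG00000055148 moved in opposite directions. In spretus it measured 7.51, 7.67 and 7.75 at day 56, against 6.99, 7.22 and 7.17 at day 14. In musculus it measured 6.75, 6.86 and 6.83 at day 56, against 7.06, 7.52 and 7.44 at day 14. The ages did not overlap in either species. The log2 change was 0.52 ± 0.10 in spretus (adjusted p = 0.00501) and -0.53 ± 0.10 in musculus (adjusted p = 0.00305), and the difference was 1.04 ± 0.15 (SE; limma, adjusted p = 0.00638). Neither gene passed the test of the difference when the 12 arrays of days 14 and 56 were fitted alone (adjusted p = 0.0607 and 0.0745). The other 3 genes had differences of 0.80 to 0.98. In spretus 1 of them rose, by 0.79 on the log2 scale, and in musculus 2 of them fell, with log2 changes of -0.93 and -1.03.

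Genes that were not called were bounded by the precision of the arrays. The median SE of the log2 change was 0.11. For 10553 genes, 85.5% of those tested, the 95% interval of the change lay inside 1.5-fold in both directions, and 345 of these were nevertheless called, as small changes measured well. The interval lay inside 2-fold for 12167 genes, or 98.55%. There were 52 genes neither called nor bounded within 2-fold, and 1134 neither called nor bounded within 1.5-fold. For these 1134 the interval reached past 1.5-fold. A change of at least 2-fold without a call was found in 4 genes.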

How the data were processed

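Biotin-labelled RNA of each brain was hybridised to an Affymetrix mouse array of the 1-colour type, per the labels' protocols. The deposited log2 values, 1 per Ensembl gene and array, were taken as normalized between arrays, on the basis of array medians of 6.52 to 6.56. The log base was inferred from their range of 2.89 to 13.82. The sources used here do not state the normalization, a gene filter or a batch. The authors' list of 46864 masked probes served to count such probes in each gene.

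All 18 arrays entered 1 linear model with 6 group means, in limma 3.58.1 in R 4.3.3 (lmFit, contrasts.fit, eBayes), leaving 12 residual and 17.1 moderated degrees of freedom. Tests were two-sided, with Benjamini-Hochberg adjustment over 12346 genes and a threshold of 0.05. The number of arrays limits the precision. The procedure was tested on simulated data. Each sample is a separate individual, per the labels.

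The rule for named genes took the largest changes past the threshold and without overlap, shortened to 2 IDs per direction because 0 of 12346 IDs matched a symbol among 49997 reference genes. In 41 gene lists 0 members could be matched. All of these choices were made with earlier results of these data known. Alternatives were the arrays fitted, 2 normalizations, a filter on dim genes, another variance moderation, a replicate block, 1 array left out and, chosen after the data were seen, genes with no masked probe.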

Additional observations from a re-analysis of the deposited data

Results flagged for a closer look

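For 5 genes the late change was not alike in spretus and musculus by the test of the difference itself (limma, adjusted p under 0.05), with the more positive change in spretus in each. The count was 3 to 11 with 1 array left out (3 without replicate 1 of the spretus adults, 11 without replicate 1 of the musculus adults and 8 without replicate 1 or replicate 3 of the musculus pups), and 0 to 12 over all alternatives. The 0 came from genes with no masked probe tested alone, where 0 of the 5 lie. The largest difference was that of ENSMUSG00000030560, 1.44 on the log2 scale (adjusted p = 0.00525), where the spretus ages overlapped and every musculus adult lay below every musculus pup. The next was ENSMUSG00000055148, at 1.04 (adjusted p = 0.00638), which rose in spretus and fell in musculus. Over the alternatives the differences ranged over 1.31 to 1.59 and 0.95 to 1.18, with adjusted p of 0.000762 to 0.0607 and 0.000377 to 0.0745. The authors had masked 3 probes of the first gene and 1 of the second, and the part of masking in these differences was not tested.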

How the results depend on the processing

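Direction and call of the 4 example genes of the spretus step held under all alternatives in which they were tested. The number of called genes was 645 with the arrays of the contrast alone, 317 of them fallen. It was 60 among the 3221 genes with no masked probe tested alone (26 risen, 34 fallen), a smaller set chosen after the data were seen. Of these 3221 genes, whose median log2 level was 4.75, 141 were called when all genes were tested. With 1 array left out the number of called genes was 535 to 764, with 256 to 344 risen and 279 to 420 fallen. In the other alternatives it lay within 1.5 times of 1004. Called with the same sign in all 12 alternatives that test all genes were 352 genes, 165 risen and 187 fallen. Each array centred on its median gave 514 risen and 469 fallen genes.

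The 5 genes with a difference in change between the species became 1 with the arrays of the contrast alone, 8 after quantile normalization, 12 with an intensity trend and robust moderation, and 0 among genes with no masked probe alone, where 0 of the 5 lie. With 1 array left out there were 3 to 11: leaving out replicate 1 of the adult spretus animals gave 3, replicate 1 of the adult musculus animals 11, and replicate 1 or 3 of the musculus pups 8. The cause of these shifts was not tested.

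With the replicate numbers of the titles as a replicate block, 814 genes were called in the spretus step and 3 for the difference. The numbers share no stated animal, litter or batch, and the deviations of same-numbered spretus arrays correlated with r of -0.11, -0.00447 and 0.0496, so the arrays were not paired.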
